A study of Mus musculus with 15 samples.

Results

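The genes described here encode the proteins of the 5S ribonucleoprotein particle (Rpl5 and Rpl11), the factors that carry that particle and place it in the growing large ribosomal subunit (Heatr3, Rrs1 and Rpf2), and the p53 circuit that the particle is known to reach (Mdm2, Mdm4 and Trp53). They were the rows of the deposited tables whose gene name matched 1 of these 8 symbols, 8 of 55487 mouse genes. All 8 were found, and all 8 passed the filter on low counts in both tables. The RNA came from fetal liver erythroid progenitors of mice of strain 129S6/SvEvTac, taken at stage E12.5. The 15 libraries form 5 groups of 3: wildtype and Rpl5 mutant of mouse group 1, made from polyA RNA, and wildtype, mutant and low-yield mutant of mouse group 2, made from total RNA.

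The sample table deposited with mouse group 2 writes the genotype of both of its mutant groups as Rpl5plusSkax23Jus, a wildtype Rpl5 copy beside a Skax23Jus allele, and what that allele does to the Rpl5 transcript is not given in the labels. The table of mouse group 1 names no allele, so its mutants are called only Rpl5 mutants here. The labels do not define low yield, and they do not say whether replicates came from separate embryos or from pools. The p-values therefore measure the spread between these libraries, which may be technical. Because RNA kind and mouse group coincide, the 2 cannot be told apart, and levels were compared only within a mouse group.

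Rpl5 and Rpl11 join the 5S ribosomal RNA before it enters the large subunit. Heatr3 is known to bring Rpl5 and Rpl11 into the nucleus, and Rrs1 and Rpf2 form the pair that docks the particle on the pre-ribosome. A 5S particle that is not built in can bind Mdm2, the ubiquitin ligase that marks p53 for destruction, and thereby stabilise p53. Mdm4 is the partner of Mdm2 that also holds p53 down, and Trp53 encodes p53 itself. Loss of 1 copy of RPL5 or RPL11 is a known origin of Diamond-Blackfan anaemia, a failure of red cell formation. Much of this circuit works on proteins, which RNA sequencing does not measure.

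Total counts ranged from 48510828 to 58513669 in mouse group 1 and from 24954324 to 44827821 in mouse group 2. The lowest count of any member in any library was 1283, for Rpf2. The summed level of 12 erythroid markers, in CPM (counts scaled to library size with TMM factors), was 6090 to 7760 in group 1 wildtype and 3240 to 3440 in group 1 mutant libraries. Group 2 held 7780 to 14700 in wildtype, 4780 to 5750 in mutant and 4100 to 5600 in low-yield mutant libraries. All 12 erythroid markers were detected in every group, and 10, 5 and 7 of them fell in the 3 comparisons with wildtype, while Kit, the receptor of early progenitors, rose in each. The summed level of 8 granulocyte markers was 13.8 to 26.2 in group 2 wildtype, 93.4 to 192 in mutant and 135 to 279 in low-yield mutant libraries. Group 1 held 85 to 634 in wildtype and 210 to 1230 in mutant libraries. Hepatocyte markers summed to 29.5 to 55.5 in group 1 wildtype and 6.86 to 19.3 in group 1 mutant libraries, and Serpina1b was at 0 in some library of both. In group 2 they overlapped, at 9.49 to 67.4 in wildtype, 9.74 to 42.7 in mutant and 37.2 to 44.7 in low-yield mutant libraries. Megakaryocyte markers were 11.5 to 13.7 in group 2 wildtype, 18.9 to 19.5 in mutant and 28.4 to 37.3 in low-yield mutant libraries, and endothelial markers 0.809 to 1.87, 3.48 to 5.09 and 6.06 to 9.58, with no overlap between these groups. In group 1 wildtype and mutant libraries overlapped for both, at 13.8 to 24.3 and 19.0 to 33.6 for megakaryocyte markers and 1.89 to 4.04 and 3.91 to 9.67 for endothelial markers. Macrophage markers were 7.09 to 57.2 and 8.28 to 78.4 in group 1, and 1.17 to 4.43, 2.42 to 9.11 and 6.91 to 9.24 in group 2, where low-yield mutant and wildtype libraries did not overlap, with C1qa, C1qb and C1qc at 0 in some library of every group. The part of these marker shifts in the member values below was not tested. In such bulk libraries, fewer cells of a type and less RNA per cell cannot be told apart.

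The Rpl5 row cannot be read without a second gene, Gm15500, because the 2 share their whole coding sequence. Rpl5 (ENSMUSG00000058558) lies on chr5:107900502-107909005 of GRCm38, plus strand. Gm15500 (ENSMUSG00000086583) is a transcribed processed pseudogene on chr7:114705217-114706235. All 891 coding bases of Rpl5 occur unchanged in Gm15500. The stretches below are bases 566 to 625 of the Rpl5 coding sequence, from GENCODE M21 transcripts on GRCm38, 5′ to 3′. Capitals mark bases that differ from Rpl5, and the stretch was picked because both other close copies differ within it:
Rpl5: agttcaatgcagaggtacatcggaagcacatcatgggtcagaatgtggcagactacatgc
Gm15500: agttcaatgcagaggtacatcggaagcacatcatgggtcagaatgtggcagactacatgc
Rpl5-ps1: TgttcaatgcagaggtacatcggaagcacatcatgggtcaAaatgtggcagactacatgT
Rpl5-ps2: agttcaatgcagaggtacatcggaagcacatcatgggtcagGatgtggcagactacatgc

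Over the whole coding sequence, Rpl5-ps1 differs from Rpl5 at 10 bases and Rpl5-ps2 at 14. A stretch of 151 bases, the read length, can start at 741 places in the Rpl5 coding sequence. All 741 such stretches are present unchanged in Gm15500, against 318 (42.9%) in Rpl5-ps1 and 117 (15.8%) in Rpl5-ps2. In the 2045-base Rpl5 transcript, which extends beyond the coding sequence, 868 of 1895 stretches are present unchanged in Gm15500. The libraries were read as pairs, so these counts of single stretches, here and for Rpl11 below, do not give the share of ambiguous read pairs. The deposited counts gave Gm15500 more than Rpl5 itself: its mean count was 141% of that of Rpl5 in mouse group 1 and 225% in mouse group 2. Rpl5-ps1 received at most 34 counts in a library and Rpl5-ps2 at most 23. How many of the Gm15500 counts came from the Rpl5 transcript cannot be told from these tables, so Rpl5, Gm15500 and the sum of Rpl5 with its 7 near-identical copies are given side by side.

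Rpl11, the other 5S protein gene, also shares sequence with copies. Rpl11 (ENSMUSG00000059291; chr4:136028265-136053428, minus strand) has 10 near-identical copies, and its closest expressed one, Gm10288, differs at 1 of 534 coding bases. That base falls in bases 56 to 115 of the Rpl11 coding sequence, printed here with the difference in capitals:
Rpl11: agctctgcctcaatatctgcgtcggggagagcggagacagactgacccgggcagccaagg
Gm10288: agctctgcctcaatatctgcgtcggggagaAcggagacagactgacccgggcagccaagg

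Of 384 stretches of 151 coding bases, 298 (77.6%) are present unchanged in Gm10288, and 337 of 683 stretches of the 833-base Rpl11 transcript are in at least 1 copy, so by sequence its reads can be ambiguous too. In the deposited counts, Gm10288 counts were 3.79% of those of Rpl11 in mouse group 1 and 4.58% in mouse group 2. The Rpl11 row held 94.3% to 96.1% of the counts of Rpl11 and its copies over the 15 libraries. The Rpl5 row held only 38.9% to 41.7% of its family's counts in group 1 wildtype, 42.1% to 44.0% in group 1 mutant and 27.1% to 33.6% in the group 2 libraries.

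Rpl5 fell in every comparison with wildtype. In mouse group 1, Rpl5 stood at 656, 668 and 744 CPM in wildtype libraries and at 520, 561 and 570 CPM in mutant libraries. In mouse group 2 it stood at 324, 303 and 374 CPM in wildtype, 232, 248 and 248 CPM in mutant, and 243, 219 and 278 CPM in low-yield mutant libraries. No mutant library reached the lowest wildtype library of its mouse group. Rpl5 fell by 20.1% in group 1 mutants (log2 fold change -0.32, SE 0.07, adjusted p 0.011 by the quasi-likelihood test of edgeR). It fell by 27.3% in group 2 mutants (-0.46, SE 0.10, adjusted p 0.0128) and fell by 26.1% in low-yield mutants (-0.44, SE 0.10, adjusted p 0.0101). The 2 group 2 values share their wildtype libraries. Over both mouse groups Rpl5 fell by 23.8% (-0.39, 95% confidence interval -0.51 to -0.27, adjusted p 0.000101), and the log2 effects of the 2 mouse groups differed by -0.12 (interval -0.37 to 0.13, adjusted p 1).

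**Figure D1:**
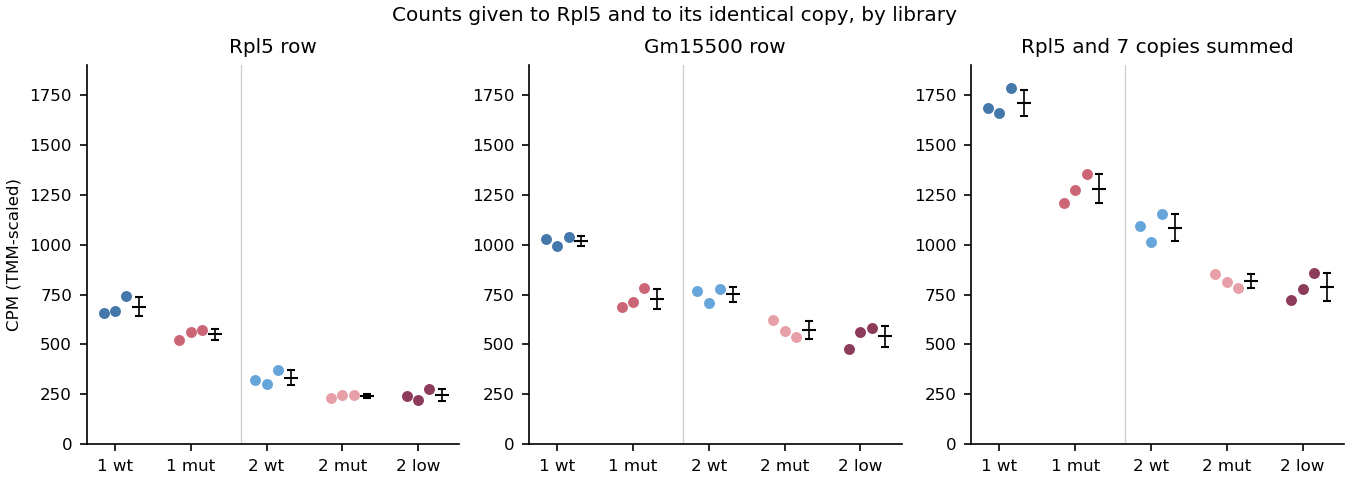
CPM (TMM-scaled, linear axis from 0) of the Rpl5 row, the Gm15500 row and the sum of Rpl5 with its 7 near-identical copies in each of the 15 libraries; bars give the group mean with SD (n = 3). In all 3 panels the mutant libraries lie below the wildtype libraries of their mouse group, with the summed level at 1660 to 1786 against 1210 to 1355 in mouse group 1.

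The identical copy moved with Rpl5. Gm15500 stood at 1029, 992 and 1041 CPM in group 1 wildtype and 689, 712 and 784 CPM in group 1 mutant libraries. In group 2, Gm15500 stood at 769, 709 and 777 CPM in wildtype, 622, 565 and 535 CPM in mutant and 479, 561 and 581 CPM in low-yield mutant libraries. Again mutant and wildtype libraries of a mouse group did not overlap. Its log2 fold changes were -0.49 (adjusted p 0.00101), -0.39 (0.0213) and -0.48 (0.00389), of which the call in group 2 mutants was lost without wildtype replicate 3 or mutant replicate 2 or 3 (adjusted p up to 0.117). For Rpl5 with its copies they were -0.42 (SE 0.06, adjusted p 0.00216), -0.41 (SE 0.09, adjusted p 0.0118) and -0.46 (SE 0.09, adjusted p 0.00314). The sum thus fell by 25.2%, fell by 24.8% and fell by 27.5%, a narrower range than for the Rpl5 row alone, and over both mouse groups its log2 change was -0.41 (interval -0.52 to -0.31).

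With 3 libraries a group, the Rpl5 call in mouse group 2 rested on single libraries. The call in group 2 mutants was lost without wildtype replicate 3 (log2 -0.37, adjusted p 0.0586) or mutant replicate 1 (-0.42, 0.0671). The call in low-yield mutants was lost without low-yield mutant replicate 1 (-0.42, 0.0566) or 2 (-0.35, 0.0753). With copies summed, the group 2 mutant call was lost without wildtype replicate 3 (-0.37, 0.0522) or mutant replicate 3 (-0.38, 0.0707). The group 1 and pooled calls of Rpl5, Gm15500 and the sum held in every fit with 1 library left out.

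Calls among the members are set beside those over all tested genes. In group 1, 1 of 8 members was called, Rpl5, where 11.9% of 14048 tested genes were, 5.42% higher and 6.52% lower. With replicate numbers as a block it was 2 of 8, Rpl5 and Rpf2, and 2772 genes in place of 1678. In group 2 mutants, 1 of 8 was called, again Rpl5, where 6.02% of 15024 genes were, 3.23% higher and 2.8% lower. In low-yield mutants 2 of 8 were called, Rpl5 and Rpf2, where 11.7% of genes were, 6.14% higher and 5.56% lower. Over both mouse groups 3 of 8 were called, Rpl5, Rpf2 and Mdm2, where 18% of 15954 genes were, 8.96% higher and 8.99% lower. The median absolute log2 change over the 8 members was 0.13, 0.11 and 0.13 in the 3 comparisons with wildtype, against 0.20, 0.20 and 0.23 over all tested genes. The tested genes include many of lower count than the members, whose changes are noisier, and no background of matched level was used. The values therefore do not show that the members moved less than other genes of their level.

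**Figure D2:**
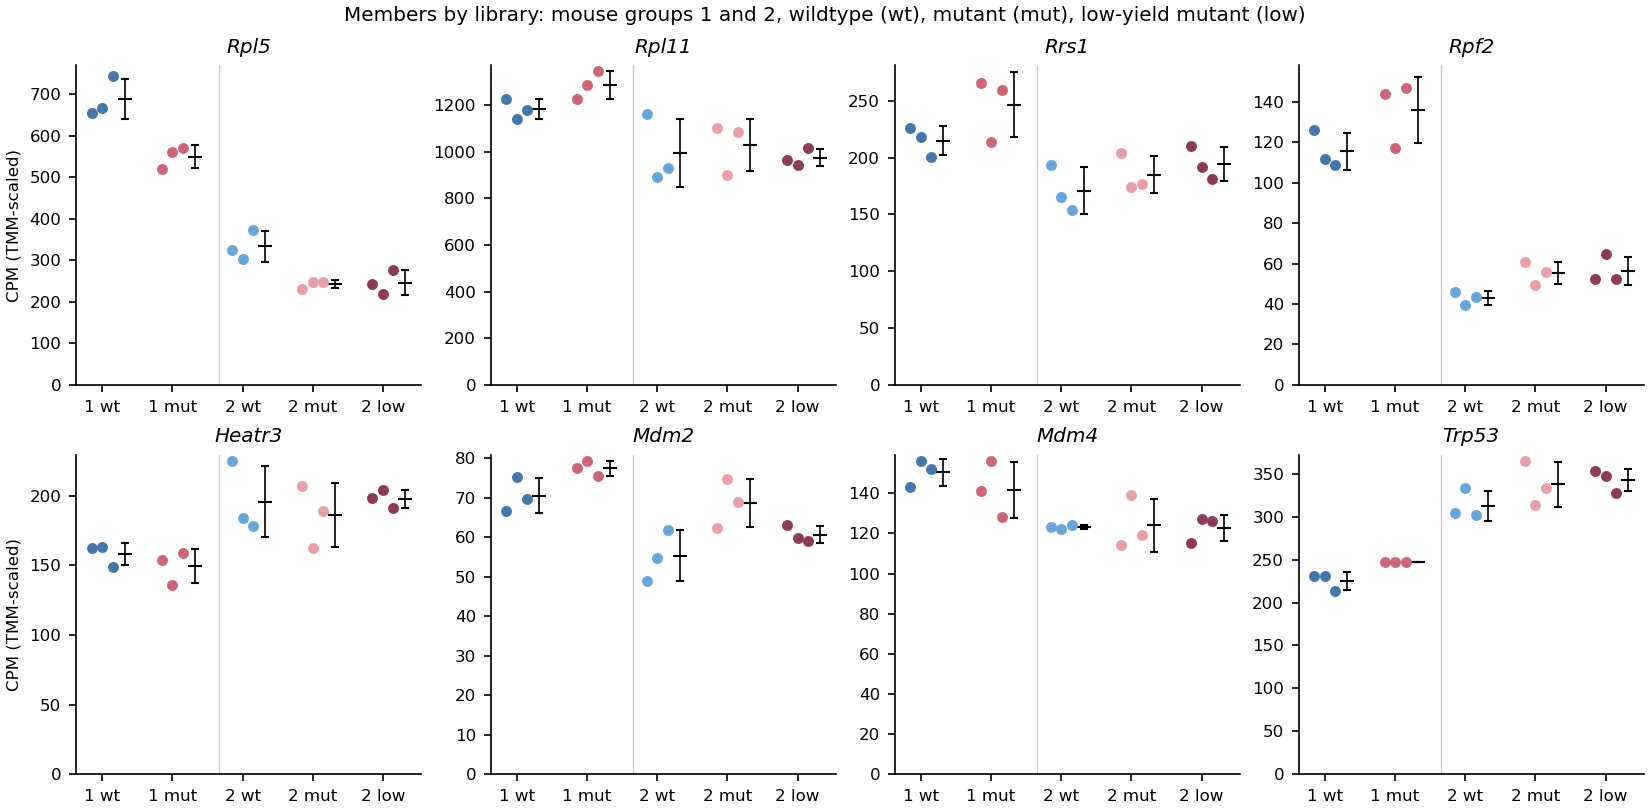
CPM (TMM-scaled, linear axes from 0) of the 8 members in each of the 15 libraries of mouse groups 1 and 2; bars give the group mean with SD (n = 3). Rpl5 is lower in mutant than in wildtype libraries of both mouse groups, and Rpf2 in mouse group 2 is higher in all 6 mutant libraries, at 49.5 to 64.6 against 39.4 to 45.9 in wildtype.

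Rpl11, the second protein of the 5S particle, was not called in any comparison by edgeR. Rpl11 stood at 1226, 1142 and 1181 CPM in group 1 wildtype and 1226, 1288 and 1346 CPM in group 1 mutant libraries. In group 2 it stood at 1161, 891 and 929 CPM in wildtype, 1103, 901 and 1085 CPM in mutant, and 967, 942 and 1016 CPM in low-yield mutant libraries. Mutant and wildtype libraries overlapped in both mouse groups. Its log2 fold changes were 0.12 (interval -0.01 to 0.26, adjusted p 0.243), 0.05 (-0.18 to 0.28, adjusted p 0.856) and -0.03 (-0.26 to 0.20, adjusted p 0.916). The pooled value was 0.09 (adjusted p 0.445), and with voom weights it was 0.15 and passed (adjusted p 0.0449). None of the 3 intervals reached the point value of Rpl5 in the same comparison.

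Rpf2 (ENSMUSG00000038510; chr10:40223246-40247036, minus strand), a member of the docking pair, rose in low-yield mutants and when both mouse groups were pooled. In mouse group 1, Rpf2 stood at 126, 112 and 109 CPM in wildtype and 144, 117 and 147 CPM in mutant libraries, and the groups overlapped. In mouse group 2 it stood at 45.9, 39.4 and 43.6 CPM in wildtype, 60.6, 49.5 and 55.7 CPM in mutant, and 52.6, 64.6 and 52.5 CPM in low-yield mutant libraries. All 6 mutant libraries of mouse group 2 lay above its wildtype libraries. Rpf2 rose 1.32-fold in low-yield mutants (log2 0.40, SE 0.11, adjusted p 0.0277 by edgeR) and 1.23-fold over both mouse groups (0.30, SE 0.08, adjusted p 0.0104). In group 1 mutants the value was 0.23 (SE 0.09, adjusted p 0.15) and with replicate numbers as a block 0.22 (adjusted p 0.0291), which passed. In group 2 mutants it was 0.36 (SE 0.11, adjusted p 0.0636). That value passed with DESeq2, upper-quartile scaling, a mean CPM of at least 5, no low-count filter, voom or the replicate block (adjusted p 0.00963 to 0.0453), and without wildtype replicate 1 or mutant replicate 2 (0.0358 and 0.0425). The low-yield call was lost without wildtype replicate 2 (0.34, adjusted p 0.128) or 3 (0.41, 0.0605), and without low-yield mutant replicate 1 (0.45, 0.0526) or 2 (0.30, 0.166). The call over both mouse groups held in all 12 fits with 1 library left out.

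Rrs1 (ENSMUSG00000061024; chr1:9545408-9547455, plus strand), its partner, was not called by edgeR with all libraries. It stood at 226, 218 and 201 CPM in group 1 wildtype and 266, 214 and 260 CPM in group 1 mutant libraries. Group 2 values were 194, 165 and 154 CPM in wildtype, 204, 174 and 177 CPM in mutant, and 210, 192 and 181 CPM in low-yield mutant libraries. Mutant and wildtype libraries overlapped in each case. The log2 fold changes of Rrs1 were 0.20, 0.11 and 0.19 (adjusted p 0.168, 0.596 and 0.253). Without group 1 mutant replicate 2, which was the lowest mutant library for Rrs1 and Rpf2, both passed in group 1, Rrs1 at 0.29 (adjusted p 0.0196) and Rpf2 at 0.32 (adjusted p 0.0202). Rrs1 also passed in low-yield mutants with voom (0.27, adjusted p 0.027) or without wildtype replicate 1 (0.29, 0.0475), and over both mouse groups with voom (0.18, 0.0397) or without group 2 wildtype replicate 1 (0.20, 0.0373).

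Heatr3 (ENSMUSG00000031657; chr8:88137855-88172027, plus strand), the carrier of the 5S proteins, did not pass in any comparison. Heatr3 stood at 162, 163 and 149 CPM in group 1 wildtype and 154, 136 and 159 CPM in group 1 mutant libraries. Its group 2 means were 196 ± 25.5 CPM (SD, n = 3) in wildtype, 186 ± 22.8 in mutants and 198 ± 6.66 in low-yield mutants. Wildtype and mutant libraries overlapped throughout, and the log2 fold changes were -0.08, -0.07 and 0.02. Heatr3 shares exon sequence with Gm9988, and Rpl5 with Snord21 and Fam69a. Whether the counting used strand is not given in the sources used here, so reads over those overlaps may belong to either gene.

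Mdm2 (ENSMUSG00000020184; chr10:117688875-117710758, minus strand), which is both the ligase of p53 and a p53 target gene, rose when both mouse groups were pooled. In mouse group 1, Mdm2 stood at 66.7, 75.2 and 69.6 CPM in wildtype and 77.5, 79.3 and 75.4 CPM in mutant libraries. In mouse group 2 it stood at 49.0, 54.8 and 61.9 CPM in wildtype, 62.3, 74.6 and 68.8 CPM in mutant, and 63.0, 59.8 and 58.9 CPM in low-yield mutant libraries. Mutant libraries lay above wildtype libraries without overlap in both mouse groups, by as little as 75.4 against 75.2, while low-yield mutant libraries overlapped with wildtype. Over both mouse groups Mdm2 rose 1.17-fold (log2 0.22, SE 0.07, adjusted p 0.0276 by edgeR). The separate values, 0.13 in group 1, 0.31 in group 2 mutants and 0.13 in low-yield mutants, did not pass (adjusted p 0.238, 0.0812 and 0.453). Mdm2 passed in group 2 mutants without a low-count filter, with voom or with the replicate block (adjusted p 0.0324, 0.0382 and 0.0492), and without wildtype replicate 3 (0.045). The pooled call was lost without group 1 wildtype replicate 1 (0.21, adjusted p 0.0523), group 2 wildtype replicate 2 (0.20, 0.0606), or group 2 mutant replicate 2 (0.19, 0.0556) or 3 (0.20, 0.0632).

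Mdm4 (ENSMUSG00000054387; chr1:132959484-133030561, minus strand) did not pass in any comparison. It stood at 143, 156 and 152 CPM in group 1 wildtype and 141, 156 and 128 CPM in group 1 mutant libraries. Group 2 values were 123, 122 and 124 CPM in wildtype, 114, 139 and 119 CPM in mutant, and 115, 127 and 126 CPM in low-yield mutant libraries. The groups overlapped throughout, and the pooled log2 fold change was -0.04 (interval -0.16 to 0.09, adjusted p 0.739).

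Trp53 (ENSMUSG00000059552; chr11:69580359-69591873, plus strand) was not called either, though its libraries separated in mouse group 1. Trp53 stood at 231, 231 and 213 CPM in group 1 wildtype and 247 CPM in each of the 3 group 1 mutant libraries. In mouse group 2 it stood at 304, 333 and 302 CPM in wildtype, 365, 314 and 334 CPM in mutant, and 353, 348 and 328 CPM in low-yield mutant libraries. Both group 2 mutant groups overlapped with wildtype. The log2 fold changes of Trp53 were 0.13, 0.11 and 0.13 (adjusted p 0.162, 0.508 and 0.332), and 0.12 over both mouse groups (interval 0.01 to 0.23, adjusted p 0.119). With upper-quartile scaling the pooled value was 0.14 (adjusted p 0.0451), and with genes of mean CPM of at least 5 it was 0.13 (adjusted p 0.0328), so this call depends on the processing.

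**Figure D3:**
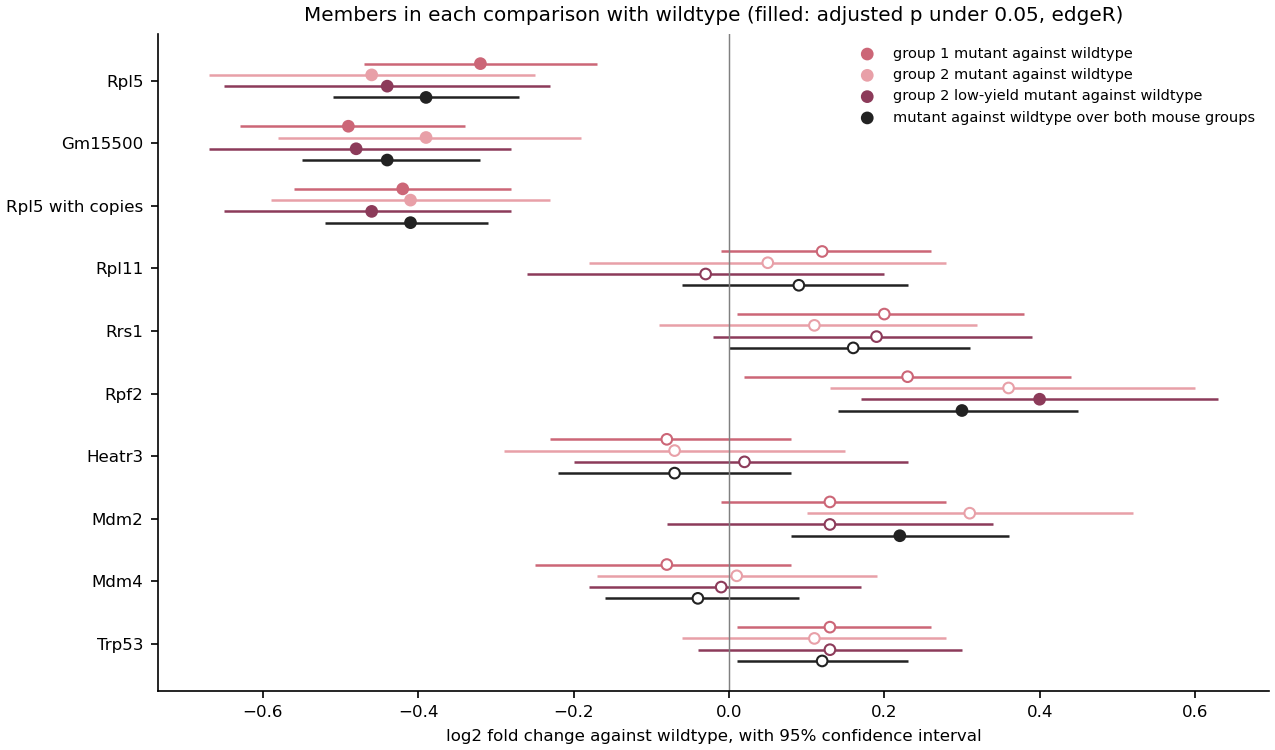
Log2 fold change against wildtype with its 95% confidence interval for the 8 members, Gm15500 and the Rpl5 sum, in each of 4 comparisons; filled points had an adjusted p under 0.05 (edgeR). The Rpl5, Gm15500 and summed values lie between -0.49 and -0.32, while Rpf2 in 2 comparisons and Mdm2 in 1 are the other filled points, at 0.22 to 0.40.

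Ratios within a library do not depend on how libraries are scaled to each other, and 9 were tested over the 12 wildtype and mutant libraries. The test was a two-sided exact permutation test with labels exchanged within each mouse group, whose smallest p is 0.005 over 400 arrangements. The log2 ratio of Rpl5 to Rpl11 was -0.90, -0.77 and -0.67 in group 1 wildtype and -1.24, -1.20 and -1.24 in group 1 mutant libraries. Group 2 values were -1.84, -1.56 and -1.31 in wildtype and -2.25, -1.86 and -2.13 in mutant libraries. The ratio was lower in every mutant library than in any wildtype library of its mouse group, by -0.48 on average (exact p 0.005, adjusted p 0.0112). Rpl5 against the median of 45 other large-subunit ribosomal protein genes gave -0.43 (exact p 0.005, adjusted p 0.0112). Rpl11 against the same median gave 0.05 (exact p 0.485, adjusted p 0.52). These ratios use the Rpl5 row alone, whose level depends on how reads were divided with Gm15500. With near-identical copies summed, the mutant minus wildtype difference was -0.50 for the ratio to Rpl11 and -0.45 for that to the large-subunit median (adjusted p 0.0112 for each, same permutation test). The sign of the ratio level itself turned in group 1 wildtype libraries, where Rpl5 with copies stood at 1711 CPM and Rpl11 with copies at 1233 CPM, and by the means in group 2 wildtype libraries (1086 and 1042 CPM), though not in replicate 1 there (1094 and 1218 CPM). The difference between mutant and wildtype libraries thus had the same direction for the row and the sum, while Rpl11 was not shown to move relative to the large subunit.

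The ratio of Mdm2 to Mdm4 rose. On the log2 scale it was -1.10, -1.05 and -1.12 in group 1 wildtype and -0.87, -0.98 and -0.76 in group 1 mutant libraries. Group 2 values were -1.33, -1.16 and -1.0 in wildtype and -0.87, -0.89 and -0.79 in mutant libraries. The groups did not overlap in either mouse group, and the mean difference was 0.27 (exact p 0.005, adjusted p 0.0112). Low-yield mutant libraries, outside this test, had -0.86, -1.09 and -1.09 and overlapped with wildtype. Mdm2 against Trp53 did not pass, at 0.10 (exact p 0.285, adjusted p 0.366).

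The ratio of Heatr3 to the assembly factors fell, although the level of Heatr3 itself did not pass. Against the median of 46 large-subunit assembly factor genes, its log2 ratio was 0.00, 0.10 and 0.02 in group 1 wildtype and -0.18, -0.22 and -0.19 in group 1 mutant libraries. Group 2 values were 0.74, 0.57 and 0.66 in wildtype and 0.46, 0.31 and 0.36 in mutant libraries. The groups did not overlap, and the mean difference was -0.26 (exact p 0.005, adjusted p 0.0112). Over both mouse groups the list had a median log2 change of 0.17 and Heatr3 had -0.07. Of the 46 listed genes 40 lay above 0, while genes such as Pelp1 (-0.24) and Tex10 (-0.09) lay below Heatr3. The fall of the ratio thus includes the rise of the list median. That list was chosen with results of these data known, so the p-values against it describe and do not test. Against the same median, Rpf2 gave 0.11 (exact p 0.065, adjusted p 0.0975) and Rrs1 gave -0.03 (exact p 0.52, adjusted p 0.52). Rrs1 against Rpf2 gave -0.14 (exact p 0.04, adjusted p 0.072), which did not pass after adjustment.

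**Figure D4:**
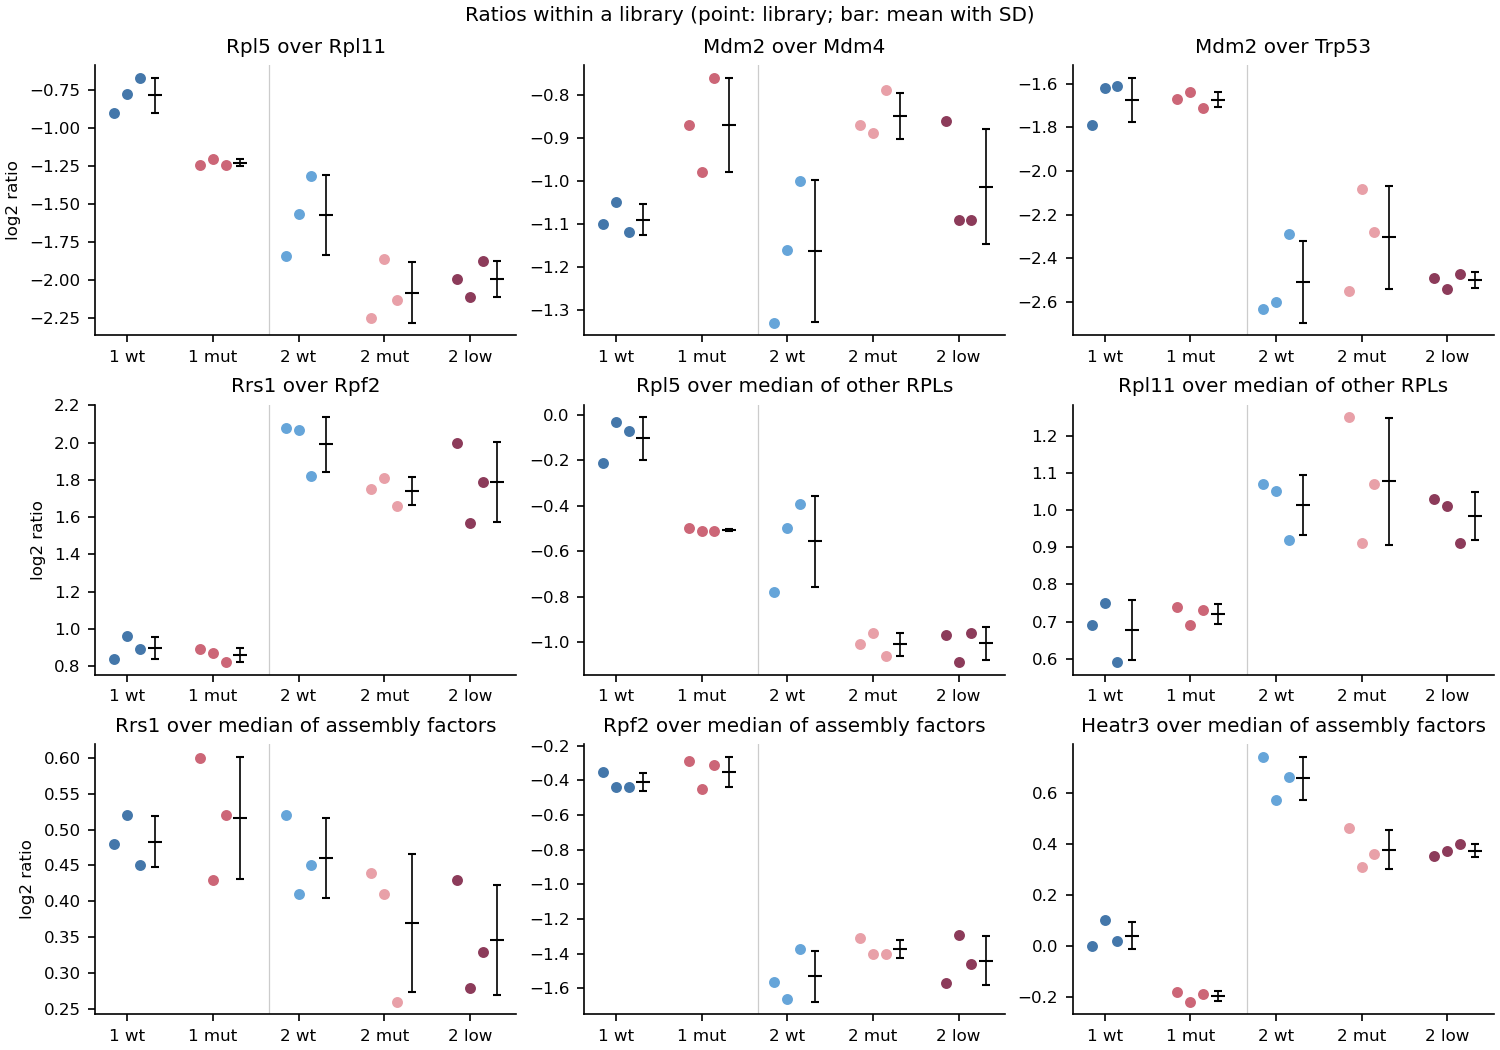
Log2 ratio of 2 members, or of a member to the median of a gene list, within each of the 15 libraries; points are libraries and bars give the group mean with SD (n = 3), and axes do not start at 0. The mutant libraries lie apart from the wildtype libraries of the same mouse group for Rpl5 over Rpl11, Rpl5 over other large-subunit ribosomal proteins (RPLs), Mdm2 over Mdm4 and Heatr3 over assembly factors.

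Levels per kilobase, dividing CPM by the union of a gene's exons, put Rpl11 first and Mdm2 and Mdm4 last in every group. In group 1 wildtype libraries Rpl11 came first at 439 ± 15.7 CPM per kilobase, followed by Rpl5 at 176 ± 12.2 and Rrs1 at 105 ± 6.23. Rpf2 (60.2 ± 4.89) and Trp53 (55.6 ± 2.64) overlapped, and Heatr3 (35.1 ± 1.71), Mdm2 (13.9 ± 0.852) and Mdm4 (10.1 ± 0.428) followed without overlap. The order was the same in group 1 mutants. In group 2 wildtype libraries Rpl5 (85.1 ± 9.33), Rrs1 (83.4 ± 9.97) and Trp53 (77.3 ± 4.30) overlapped behind Rpl11 (368 ± 54.1). By the union of exons, Rpl5 stood behind Rrs1 and Trp53 in both group 2 mutant groups, at 61.9 ± 2.41 in mutants and 62.9 ± 7.61 in low-yield mutants. The order depends on the length used: with the longest coding transcript, Rpl5 stayed above Rrs1 in both group 2 mutant groups (119 against 90.2 and 121 against 94.9), Trp53 lay above Rrs1 in all 5 groups, and Mdm2 and Mdm4 overlapped in both wildtype groups. The Rpl5 level also depends on how its reads were divided with Gm15500.

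The wider pathway was read from 6 gene lists. The lists were chosen with results of these data known, so their counts describe and do not test. Over all tested genes 11.9%, 6.02% and 11.7% were called in the 3 comparisons with wildtype, and each list's share is given beside its counts in the same order. Of 17 tested genes for Mdm2-binding ribosomal and nucleolar proteins, 4 rose and 1 fell in group 1, 0 and 1 in group 2 mutants, and 2 and 1 in low-yield mutants, with median log2 changes of 0.13, 0.05 and 0.08 (29.4%, 5.88% and 17.6% called). In group 2 mutants 3 had risen and 1 had fallen at an unadjusted p under 0.05 by edgeR, and 1 had risen by DESeq2. The gene that fell was Pml each time, which encodes the organiser of nuclear bodies and can hold Mdm2 in the nucleolus. Pml fell from 97.2 ± 3.77 to 70.3 ± 2.87 CPM in group 1 (adjusted p 0.0012), and from 177 ± 13.6 to 139 ± 6.3 CPM in group 2 mutants (0.0203) and 128 ± 8.66 CPM in low-yield mutants (0.00183). Rps27l, a ribosomal protein relative that p53 is known to induce, rose in group 1 (log2 0.34, adjusted p 0.00504) and over both mouse groups (0.32, adjusted p 0.000663), and had 0.30 (adjusted p 0.1) in group 2 mutants and 0.25 (adjusted p 0.134) in low-yield mutants. Mybbp1a, a nucleolar protein that binds p53, rose in group 1 (0.34, adjusted p 0.0112) and in low-yield mutants (0.39, adjusted p 0.0129), and had 0.29 (adjusted p 0.082) in group 2 mutants.

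Among 22 p53 ubiquitin ligases and deubiquitinases, 0 rose and 1 fell in group 1, 1 and 1 did in group 2 mutants, and 3 and 1 in low-yield mutants, with medians of 0.04, 0.01 and 0.03. The shares called, 4.55%, 9.09% and 18.2%, lay below the share over all genes in group 1 and above it in the other 2, on 1 to 4 genes. In group 1, 1 was higher and 3 were lower at an unadjusted p under 0.05 by edgeR, and 1 was higher by DESeq2. Mkrn1, another ligase for p53, was the 1 that fell each time. Its level went from 64.5 ± 5.35 to 47.1 ± 2.39 CPM in group 1 (adjusted p 0.00397), and from 51.3 ± 5.08 to 35.7 ± 3.52 CPM in group 2 mutants (0.00951) and 27.6 ± 1.64 CPM in low-yield mutants (0.000193). Ube2d1, a ubiquitin-conjugating enzyme that works with Mdm2, rose in group 2 mutants (0.70, adjusted p 0.0348) and low-yield mutants (0.60, adjusted p 0.0444) and had 0.31 (adjusted p 0.194) in group 1. Topors, a further p53 ligase, rose in low-yield mutants (0.30, adjusted p 0.0183) and over both mouse groups (0.21, adjusted p 0.0152), and had 0.16 (adjusted p 0.202) in group 1 and 0.26 (adjusted p 0.0559) in group 2 mutants.

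Of 27 p53 modifying enzymes and cofactors, 3 rose and 1 fell in group 1, 1 and 0 in group 2 mutants, and 2 and 1 in low-yield mutants, with medians of 0.07, 0.06 and 0.03. The shares called, 14.8%, 3.7% and 11.1%, lay near those over all genes, so the counts are no result about the list. Prmt5, an arginine methyltransferase with p53 among its substrates, rose in all 3. Its level went from 188 ± 10.3 to 258 ± 19.5 CPM in group 1 (adjusted p 0.00198), and from 222 ± 13 to 305 ± 34.1 CPM in group 2 mutants (0.0122) and 306 ± 30 CPM in low-yield mutants (0.00686). Trp53bp1, a DNA damage adaptor that binds p53, rose in group 1 (0.35, adjusted p 0.00969) and in low-yield mutants (0.36, adjusted p 0.0294), and had 0.30 (adjusted p 0.0926) in group 2 mutants. Smyd2, a lysine methyltransferase that restrains p53, fell in group 1 (-0.28, adjusted p 0.0197) and over both mouse groups (-0.29, adjusted p 0.00369), and had -0.30 (adjusted p 0.101) in group 2 mutants and -0.17 (adjusted p 0.342) in low-yield mutants.

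The small counts of these 3 lists moved with single libraries. In group 2 mutants, Pml lost its call without wildtype replicate 2 or mutant replicate 1 or 3, Mkrn1 without mutant replicate 1, and Prmt5 without wildtype replicate 3 or mutant replicate 1 or 3. Ube2d1 lost its call there without wildtype replicate 1 or 3, any mutant replicate, or low-yield mutant replicate 1. Trp53bp1 lost its low-yield call without wildtype replicate 2 or 3 or any low-yield mutant replicate (adjusted p up to 0.142). The low-yield call of Ube2d1 was lost without wildtype replicate 1 or 3, mutant replicate 1 or 3, or low-yield mutant replicate 1 or 2. In low-yield mutants, no ligase rose without wildtype replicate 3 or low-yield mutant replicate 1 or 2, and no Mdm2-binding gene rose without wildtype replicate 2 or 3 or low-yield mutant replicate 1 or 2. In group 1, the 4 Mdm2-binding genes that rose became 1 without wildtype replicate 2 or mutant replicate 3 and 2 without wildtype replicate 3. Mybbp1a lost its group 1 call without wildtype replicate 2 or mutant replicate 3, and Smyd2 lost its call without wildtype replicate 1 or 2 or mutant replicate 3.

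The p53 targets changed more than the members did, by their medians. Of 25 tested targets, 13 rose and 2 fell in group 1, 11 and 0 in group 2 mutants, and 10 and 2 in low-yield mutants, with medians of 0.56, 0.52 and 0.41 against 0.01, -0.01 and 0 over all genes (60%, 44% and 48% called). Zmat3, Ccng1, Eda2r, Cdkn1a, Phlda3, Bbc3, Aen and Plk2 rose in all 3 comparisons. Cdkn1a, the cyclin-dependent kinase inhibitor p21, went from 2.16 ± 0.779 to 30.5 ± 3.75 CPM in group 1, and from 2.73 ± 0.694 to 37.9 ± 12 CPM in group 2 mutants and 22.7 ± 6.04 CPM in low-yield mutants. Zmat3, an RNA-binding protein gene with the smallest p of the list, had log2 changes of 2.58, 2.48 and 2.10 (largest adjusted p 1.18e-07). Mdm2, a target of the same factor, had 0.13, 0.31 and 0.13. With 1 library left out, the 8 kept their calls except Bbc3 in group 1 without wildtype replicate 2, and in low-yield mutants Phlda3 without wildtype replicate 2 and Plk2 without wildtype replicate 3 or low-yield mutant replicate 1 or 2. The targets that fell were Btg2 and Sesn1 in group 1 and Btg2 and Sesn2 in low-yield mutants.

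Among 46 large-subunit assembly factors, 9 rose and 0 fell in group 1, 1 and 1 in group 2 mutants, and 10 and 0 in low-yield mutants, with medians of 0.17, 0.18 and 0.23 (19.6%, 4.35% and 21.7% called). The counts moved with single libraries and the medians did not turn. Over both mouse groups 19 rose and 1 fell (43.5% called), against 18% of all tested genes, 8.96% higher and 8.99% lower. Leaving out 1 library there gave 9 to 25 higher with medians of 0.13 to 0.21. The count was 9 to 12 without group 1 wildtype replicate 2 or 3, group 1 mutant replicate 1 or 3, group 2 wildtype replicate 2 or 3, or group 2 mutant replicate 1 or 3. In group 1 the 9 became 1 without wildtype replicate 2 or mutant replicate 3, 2 without wildtype replicate 3, 4 without mutant replicate 1 and 20 without mutant replicate 2. In low-yield mutants the 10 became 2 to 5 without wildtype replicate 2 or 3, mutant replicate 3, or low-yield mutant replicate 1 or 2, and 24 without wildtype replicate 1. In group 2 mutants the 1 became 11 without wildtype replicate 1 and 5 without mutant replicate 2, and Ddx27 was lost without wildtype replicate 2 or 3, mutant replicate 1 or 3, or low-yield mutant replicate 1 or 2. Ddx27, a helicase gene, rose in all 3 comparisons (0.36, 0.34 and 0.44; adjusted p 0.0165, 0.0419 and 0.00708). Gnl3l and Gtpbp4, genes of nucleolar GTPases, rose in group 1 and in low-yield mutants (Gnl3l 0.39 and 0.27, Gtpbp4 0.29 and 0.50; largest adjusted p 0.0483), and had 0.24 (adjusted p 0.0993) and 0.31 (adjusted p 0.0629) in group 2 mutants. The group 1 call was lost for Ddx27 without wildtype replicate 2 or 3 or mutant replicate 3, for Gnl3l without wildtype replicate 2 or mutant replicate 3, and for Gtpbp4 without wildtype replicate 2 or 3 or mutant replicate 1 or 3. Gnl3l lost its low-yield call without any 1 wildtype replicate, mutant replicate 1 or 3, or low-yield mutant replicate 1 or 2. Beside these medians, Rpf2 had 0.23, 0.36 and 0.40, Rrs1 had 0.20, 0.11 and 0.19, and Heatr3 had -0.08, -0.07 and 0.02.

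Of the 45 other large-subunit ribosomal protein genes, 0 were called in group 1, and Rplp0 alone was called, as higher, in group 2 mutants and in low-yield mutants (0%, 2.22% and 2.22% called). At an unadjusted p under 0.05 there were 3 higher and 1 lower in group 1, and with DESeq2 2 rose and 1 fell. Their median log2 changes were 0.09, 0.02 and 0.05, against -0.32, -0.46 and -0.44 for Rpl5. Rplp0, which encodes the stalk protein of the large subunit, had 0.13 in group 1 (adjusted p 0.192), 0.59 in group 2 mutants (0.00413) and 0.54 in low-yield mutants (0.0037). Over both mouse groups Rpl10a fell by 0.21 on the log2 scale (adjusted p 0.0193) and Rpl10 rose by 0.15 (adjusted p 0.0366), while neither passed in any of the 3 comparisons with wildtype (smallest adjusted p 0.116). In that pooled fit 3 of the 45 rose and 1 fell (8.89% called), below the 18% of all tested genes. That pooled count of 3 higher was 1 without any wildtype replicate or mutant replicate 3 of group 1, or without wildtype replicate 2 or 3 or mutant replicate 1 or 3 of group 2, and 5 without group 2 mutant replicate 2.

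**Figure D5:**
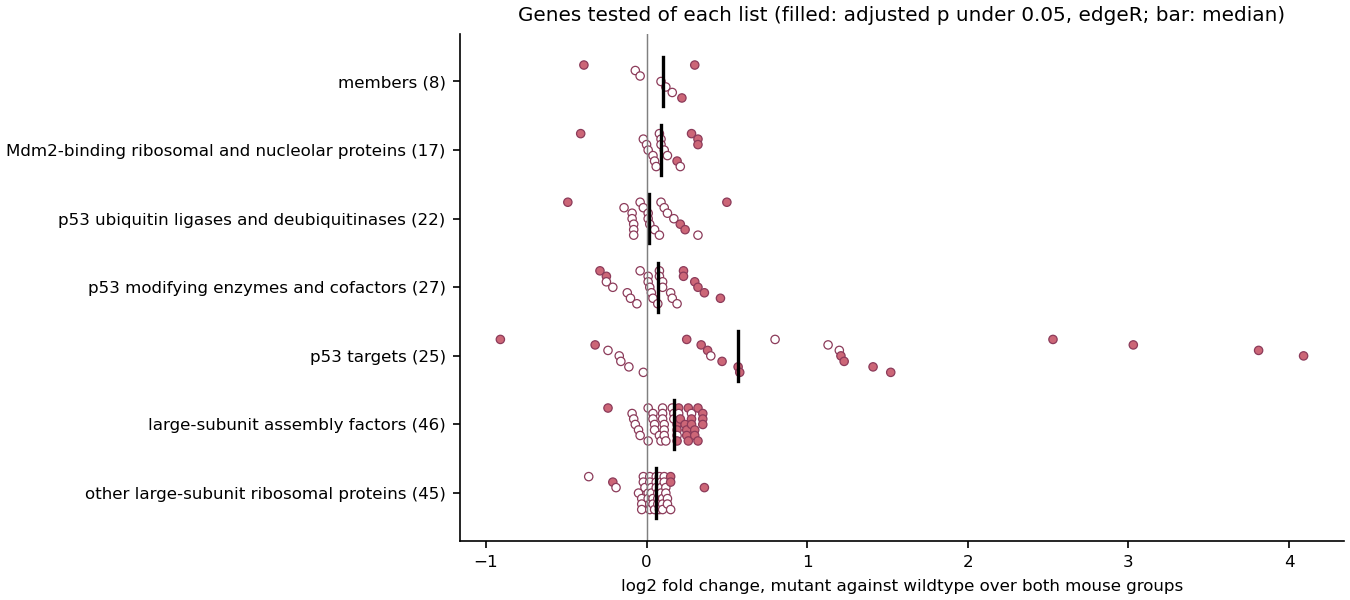
Log2 fold change, mutant against wildtype over both mouse groups, of each tested gene of the members and of 6 pathway lists; filled points had an adjusted p under 0.05 (edgeR), and bars mark the list medians. The p53 targets spread to the right with a median of 0.57, while the other lists and the members have medians of 0.02 to 0.17.

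The start regions of the members were read from RefSeq windows of GRCm38.p6, 250 bases before to 50 bases after an annotated start. Of the 8 members, 7 had such a window, 9 windows in all. Rrs1 had none, so its start region was not searched. The E-box CACGTG, which reads the same on both strands and is bound by Myc and other factors, occurred in 3 of the 9, against 2349 of all 32851 windows (7.15%). Those 3 were both Rpf2 windows, which hold the same site, and the Trp53 window. The sites are printed because Rpf2 was the docking factor that was called, with the E-box in capitals, 5′ to 3′ on the gene's strand:
Rpf2, chr10:40246988-40247017, minus strand: aagtaatcggtaCACGTGcattcgctaagg
Trp53, chr11:69580357-69580386, plus strand: actttcccctccCACGTGctcaccctggct

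The Rpf2 site lies 26 bases before 1 annotated start and 35 bases after another. The Trp53 site lies 11 bases after the start. The same E-box was present in 8 of 46 windows of assembly factor genes (17.4%) and in 5 of 26 windows of p53 targets (19.2%). A p53 response element, searched by its consensus on both strands, was present in 24 of 32851 windows (0.0731%), in 0 member windows and in the Cdkn1a window. These matches describe letters in a window. No match says only that the letters are not in these windows.

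For each member, the 3 protein-coding genes with the most similar profile were found over the 15 libraries, by the root mean square difference of log2 CPM after centring within each mouse group. There were 11476 genes to compare. A gene with a flat profile would differ from a member by that member's own deviation. This was 0.216 for Rpl5, 0.197 for Rpf2, 0.141 for Rrs1, 0.139 for Mdm2, 0.115 for Heatr3, 0.112 for Rpl11, 0.089 for Mdm4 and 0.086 for Trp53. For members that varied little, a close gene can simply be another that varied little, and shared regulation was not tested. Rpl5 was closest to Hmgb2 (0.065), Prkar2b (0.069) and Atg4b (0.078), against a median of 0.277 over all genes. Rpl11 was closest to Rps14 (0.038), Rps3 (0.044) and Eef1b2 (0.046), 2 small-subunit ribosomal protein genes and a translation elongation factor gene. Rpf2 was closest to Nol11 (0.060), Snx5 (0.061) and Wdr36 (0.063), and Rrs1 to Ddx56 (0.046), Eef1aknmt (0.048) and Elac2 (0.051). Heatr3 was closest to Psmd7 (0.039), Nop9 (0.041) and U2af1 (0.052). Mdm2 was closest to Apaf1 (0.066), a listed p53 target, then Synrg and Npc1 (both 0.076). Mdm4 was closest to Kmt5b (0.050), Brd3 (0.061) and Atg2b (0.065), and Trp53 to Dpf2 and Scap (both 0.039) and Mief1 (0.046).

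Low-yield mutants and mutants of mouse group 2 did not separate on any member. Of the 8 members 0 were called, as were 0 of 15024 genes (0%) by edgeR, with 400 genes at an unadjusted p under 0.05 and 6 genes called by DESeq2. No member had an unadjusted p under 0.05. The largest member difference was Mdm2, at -0.18 in low-yield mutants relative to mutants (interval -0.39 to 0.03), and Rpl5 differed by 0.02 (-0.19 to 0.23). The difference of the mutant effect between the 2 mouse groups was likewise called for 0 of 8 members, against 4 of 15954 genes (0.0251%), and 0 members had an unadjusted p under 0.05. Its interval for Mdm2 was -0.09 to 0.47 and for Rpf2 -0.17 to 0.48, so differences of such size cannot be set aside from these libraries.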

How the data were processed

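The deposited values are expected counts per gene, which the authors made, per the submitters' processing notes, with cutadapt 2.3, FastQC 0.11.8, STAR 2.7.8a, RSEM 1.3.3 and MultiQC 1.7 on GRCm38; the annotation release and use of strand are not given in the sources used here. Per the labels' protocols, RNA was extracted with RNeasy Micro and read as 151 bp pairs on a NovaSeq. The deposited expected counts were whole numbers, so rounding changed nothing. The 9 reporter rows, with 5 counts in all, were left out. Of 55487 genes, 55141 (99.4%) are in GENCODE M21, used for coordinates, lengths and copies (at least 90% identity over 50% of the coding sequence, blastn 2.17.0).

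The test was the two-sided quasi-likelihood F test of edgeR 4.0.16 under R 4.3.3, with TMM factors, filterByExpr, a robust fit in the installed default mode, and Benjamini-Hochberg adjustment across every gene tested at a threshold of 0.05. Mouse group 1 was fitted on 6 libraries, mouse group 2 on 9, and both together on 12 with mouse group as a covariate. Alternatives were DESeq2 1.42.0, limma 3.58.1 voom weights, other scalings and filters, summed copies, a replicate block, only the libraries compared, each library left out, and, added after seeing the data, copies summed with a library left out and the newer quasi-likelihood mode. The default mode was kept after tests on simulated data. Over both mouse groups 6.98% of its calls were false, against 21.2% in the newer mode; in group 1 it was 9.35% against 8.91%, in group 2 mutants 12.2% against 10.3%, and in low-yield mutants 9.57% in both, so within a mouse group its share was no lower than that of the newer mode and lay above the nominal threshold in both modes. In the same simulation, on 15468 genes, 33.3% of 1.25-fold changes were recovered; on 13681 genes in group 1, 6% were. Ratios used exact permutation tests in Python 3.11.15.

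Members and lists were chosen with earlier results of these data known. Genes named from a list are the 3 with the smallest p over both mouse groups and those called in all 3 comparisons with wildtype; Btg2, Sesn1 and Sesn2 were named after their values were seen, as were the marker genes with low counts. In mouse group 1, deviations of same-numbered wildtype and mutant libraries had r = 0.441, 0.186 and 0.146, and differently numbered ones had -0.349 to 0.23. In mouse group 2 the same-numbered values were 0.241, 0.173 and 0.0245, against -0.238 to 0.116. The ranges overlap in group 1, so the numbers are not shown to pair the libraries. A fit with the numbers as a block was run as an alternative. The fits and ratio tests reported first do not use the numbers, and the labels do not say what they share. Replicates differed beyond sampling noise, with chi-square per degree of freedom of at least 19.2.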

Additional observations from a re-analysis of the deposited data

How the results depend on the processing

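Of 1368 member values under alternatives, 1223 kept their call and direction, 94 changed sign without a call in either fit, 22 lost a call, 29 gained one and 0 reversed a call. Members called in group 1 went from 1 to 2 with the replicate block, which added Rpf2 and changed no other member call there. In group 2 mutants they went from 1 to 2 with DESeq2, upper-quartile scaling or a mean CPM of at least 5, which added Rpf2. They went to 3 without a low-count filter, with voom or with the replicate block, which added Rpf2 and Mdm2. The replicate numbers are not shown to pair the libraries in either mouse group. Over both mouse groups they went from 3 to 5 with voom, which added Rpl11 and Rrs1. Genes called in group 1 were 2772 with the replicate block; in group 2 mutants 1452 with DESeq2, 1457 without a filter and 2000 with voom; in low-yield mutants 3399 with voom; between low-yield mutants and mutants 6 with DESeq2 and 87 without a filter; and for the difference between mouse groups 13, 7 and 8 with DESeq2, no filter and the block. The cause of these shifts was not tested.

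With 1 library left out, members called were 1 to 3 in group 1, 0 to 2 in group 2 mutants, 0 to 3 in low-yield mutants, 2 to 4 over both mouse groups, and 0 for the other comparisons. Genes called were 757 to 1720, 419 to 1314, 771 to 2234 and 2283 to 3342, 0 to 22 between low-yield mutants and mutants, and 2 to 5 for the difference. The ratios of Rpl5 to Rpl11 (-0.545 to -0.413), Rpl5 to other large-subunit genes (-0.483 to -0.386), Mdm2 to Mdm4 (0.226 to 0.307) and Heatr3 to assembly factors (-0.279 to -0.237) passed in all 12 such tests. For ratios without overlap in either mouse group, as these were, that pass was fixed in advance, so only the ranges of the differences inform. Rrs1 to Rpf2 (-0.182 to -0.118) passed in 2 and Rpf2 to assembly factors (0.078 to 0.149) in 1. The lowest member count in a library was 1283, and the effect of depth was not tested.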
